A study of Mus musculus with 24 samples.

Results

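The 10 genes described here are targets of the tumour suppressor p53 (Trp53 in the mouse) other than Cdkn1a: Eda2r, Ccng1, Sesn2, Trp53inp1, Btg2, Phlda3, Aen, Mdm2, Rps27l and Zmat3. They were taken by name from a table of 38215 genes, as p53 targets whose response to pegylated interferon alpha (pegIFN) had differed in size or sign between wild-type and Jak2V617F stem cells in these same libraries. That response and its difference between genotypes therefore chose the genes, and the genotype difference within a treatment shares values with them. For the 10 genes these values are given below as descriptions with no test. Each name matched 1 row, and all 10 genes were among the 15879 that passed the filter on low counts, with 39 to 7329 counts per library.

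The libraries are polyadenylated RNA of long-term haematopoietic stem cells (LT-HSCs), sorted as Lin-, Sca1+, cKit+, CD150+ and CD48-. All cells came from the bone marrow of 12 lethally irradiated CD45.1+/CD45.2+ C57BL/6J recipients that had been given whole marrow of both kinds of donor, mixed in equal parts. Wild-type cells (Jak2+/+, Ptprca/a) were sorted as CD45.1+, and Jak2V617F cells (Jak2fl-V617F/+, Tg(E2A-cre)) as CD45.2+. Jak2V617F is an activating mutation of the kinase Jak2 that drives myeloproliferative neoplasms, and the labels do not say in which cells this Cre acts. Vehicle (PBS/0.1% BSA) was injected in 6 mice and pegIFN in the other 6, at 600 ng weekly under the skin for 5 doses over 4 weeks. Collection followed 48 hours after dose 5. There are thus 4 groups of 6 libraries, and each mouse contributed 1 library of each genotype, going by the mouse number that a library's name carries.

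The p53 protein is kept low by Mdm2, which marks it for degradation, and is released from Mdm2 by DNA damage, unbalanced ribosome assembly and other stress. It then binds DNA and switches on genes that stop the cell cycle, adjust metabolism, repair DNA, kill the cell or, as Mdm2 does, feed back on p53 itself. In blood stem cells p53 is known for holding cells in quiescence and for limiting their survival after stress. Interferon alpha is known to push quiescent stem cells into cycle and to raise transcription of Trp53 itself.

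Total counts per library lay between 24620821 and 39740656. The 8 interferon response genes used as a check rose in both genotypes, with a median log2 fold change of 5.00 in wild-type and 4.98 in Jak2V617F cells. The 8 LT-HSC markers summed to 1573 to 2277 CPM (counts scaled to TMM-adjusted library totals, the usual CPM unit) in wild-type vehicle libraries, 1207 to 1658 in Jak2V617F vehicle, 966.4 to 1341 in wild-type pegIFN and 839.1 to 1419 in Jak2V617F pegIFN. Sex-linked genes differed between the donors, and a pair of libraries stood apart, on Xist in both and on Y-linked genes in 1 of them. Xist was at 599.8 CPM in the library labelled wild-type vehicle replicate 4, against 1937 to 3310 in the other 5 of its group, and 4 Y-linked genes summed to 249.6 CPM there against 20.2 to 75.7. In the library labelled Jak2V617F pegIFN replicate 1, Xist was at 653.9 CPM against 40.8 to 110.1 in the other 5, and the 4 Y-linked genes summed to 149.3 CPM, just under the 157.8 to 216.2 of the others. Responses of the 10 genes and counts of calls between genotypes are given with and without both of these mice. Donor sex moved with genotype in the other libraries, so sex and Jak2 genotype cannot be told apart here. In wild-type pegIFN libraries the 4 Y-linked genes summed to 2.17 to 22.7 CPM, mostly below the 20.2 to 75.7 of the other 5 wild-type vehicle libraries. In Jak2V617F vehicle libraries they summed to 189.9 to 242.7. The part of this Y-linked signal of wild-type libraries in the contrasts was not tested.

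To show where the p53 motif lies near these genes, RefSeq promoter windows on GRCm38.p6 were searched for the p53 decamer (the 10-base unit of the consensus p53 response element, which is its own reverse complement, so both strands were covered at once). A window ran from 250 bases before to 50 bases after a RefSeq start, and 8 of the 10 genes had 1 or more. Trp53inp1 and Zmat3 had none in the table. A decamer without mismatch was present in 8.36% of all 32851 windows, and 2 adjoining decamers with at most 1 mismatch in 0.067%. Among the 10 genes, Ccng1, Aen, Mdm2 and Rps27l had at least 1 decamer, and Ccng1 and Rps27l had an adjoining pair. These 4 sites are printed 5′ to 3′ on the strand of the gene, with the decamer or pair in capitals.
Ccng1 (pair with 1 mismatch): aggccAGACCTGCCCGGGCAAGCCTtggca
Rps27l (pair with 1 mismatch): atggcGGGCTTGTTGAGACTTGTCCgggcg
Aen (1 decamer): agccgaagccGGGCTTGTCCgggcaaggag
Mdm2 (1 decamer): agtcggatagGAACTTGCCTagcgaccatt
The Ccng1 stretch lies at chr11:40755457-40755486 on the minus strand, and its site starts at base -195 from the RefSeq start. The Rps27l stretch lies at chr9:66946291-66946320 on the plus strand, in an intron, and its site starts at -117 from the start site of that window. The Aen stretch lies at chr7:78895927-78895956 on the plus strand, in an exon of the GENCODE annotation, and that of Mdm2 at chr10:117710925-117710954 on the minus strand, with its site at -186. The windows of Eda2r, Sesn2, Btg2 and Phlda3 held no decamer. A match is a description of the letters and does not show that p53 was bound, and no binding was measured here.

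Under pegIFN the 10 genes took 3 courses. Phlda3, Zmat3, Aen and Rps27l were higher than under vehicle in both genotypes, with log2 fold changes of 0.54 to 2.09 in wild-type and 0.61 to 2.40 in Jak2V617F cells. Eda2r, Sesn2 and Ccng1 were higher mainly in Jak2V617F cells, at 1.69, 0.82 and 0.55 against 0.39, 0.22 and 0.10 in wild-type cells. Btg2, Trp53inp1 and Mdm2 were lower in wild-type cells, at -2.03, -0.91 and -0.20. In Jak2V617F cells Btg2 was lower as well, at -1.31, and Trp53inp1 and Mdm2 stood at -0.10 and 0.00. In 9 of the 10 genes the Jak2V617F response lay above the wild-type response, and Aen was the exception. The values are log2 fold changes from edgeR, pegIFN against vehicle.

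**Figure D1:**
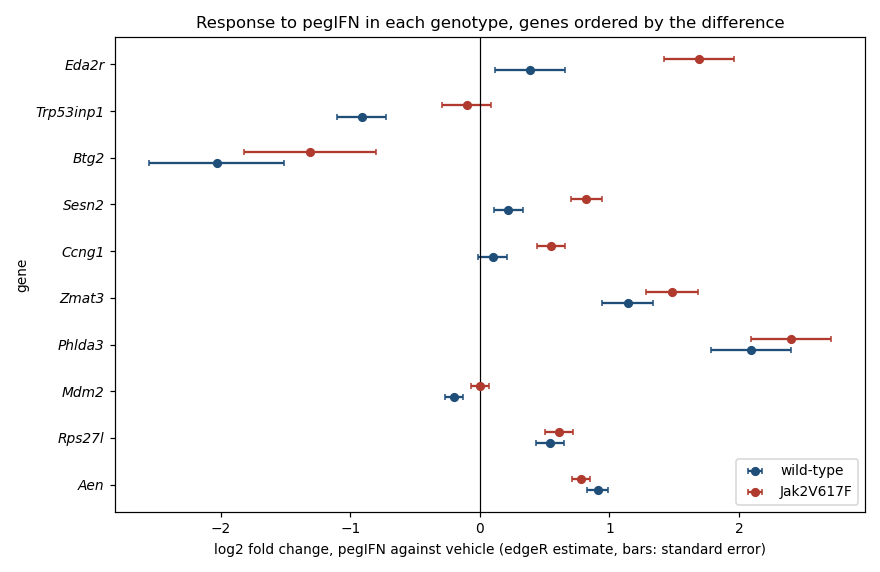
Log2 fold change of pegIFN against vehicle (horizontal axis) for the 10 genes (vertical axis), ordered by the difference between genotypes, in wild-type (blue) and Jak2V617F cells (red). Points are edgeR estimates and bars are 1 standard error on each side. The red point lies to the right of the blue one for every gene but Aen, and the gap is largest for Eda2r, at 1.69 against 0.39.

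In wild-type cells 4 of the 10 genes were higher and 3 lower at an adjusted p under 0.05 (edgeR), beside 28.2% and 28.7% of all genes. In Jak2V617F cells 7 were higher and 1 lower, beside 21.7% and 22.3%. The genes were chosen on these contrasts, so nothing is read from these counts. In wild-type cells pegIFN libraries lay wholly above vehicle libraries for Phlda3, Zmat3 and Aen, as they did for 15.1% of all genes. In Jak2V617F cells they did so for these 3 genes and also for Eda2r, Ccng1, Sesn2 and Rps27l, against 9.81% of all genes. Without both mice of the libraries that stood apart, the log2 fold change in wild-type and in Jak2V617F cells was 0.41 and 1.93 for Eda2r, 0.32 and 0.84 for Sesn2 and 0.18 and 0.62 for Ccng1. It was 2.09 and 2.78 for Phlda3, 1.30 and 1.79 for Zmat3, 0.92 and 0.82 for Aen and 0.56 and 0.57 for Rps27l. It was -1.83 and -1.16 for Btg2, -0.73 and 0.14 for Trp53inp1 and -0.09 and 0.06 for Mdm2, so that the Jak2V617F value of Trp53inp1 changed sign. Mitochondrial genes held 2.46% to 4.01% of the counts in wild-type vehicle and 1.54% to 2.24% in wild-type pegIFN libraries, which did not overlap, and 2.68% to 3.44% and 2.00% to 3.25% in Jak2V617F libraries, which did. Their part in the responses was not tested. In bulk RNA a lower level in some cells and fewer cells with a high level cannot be told apart.

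**Figure D2:**
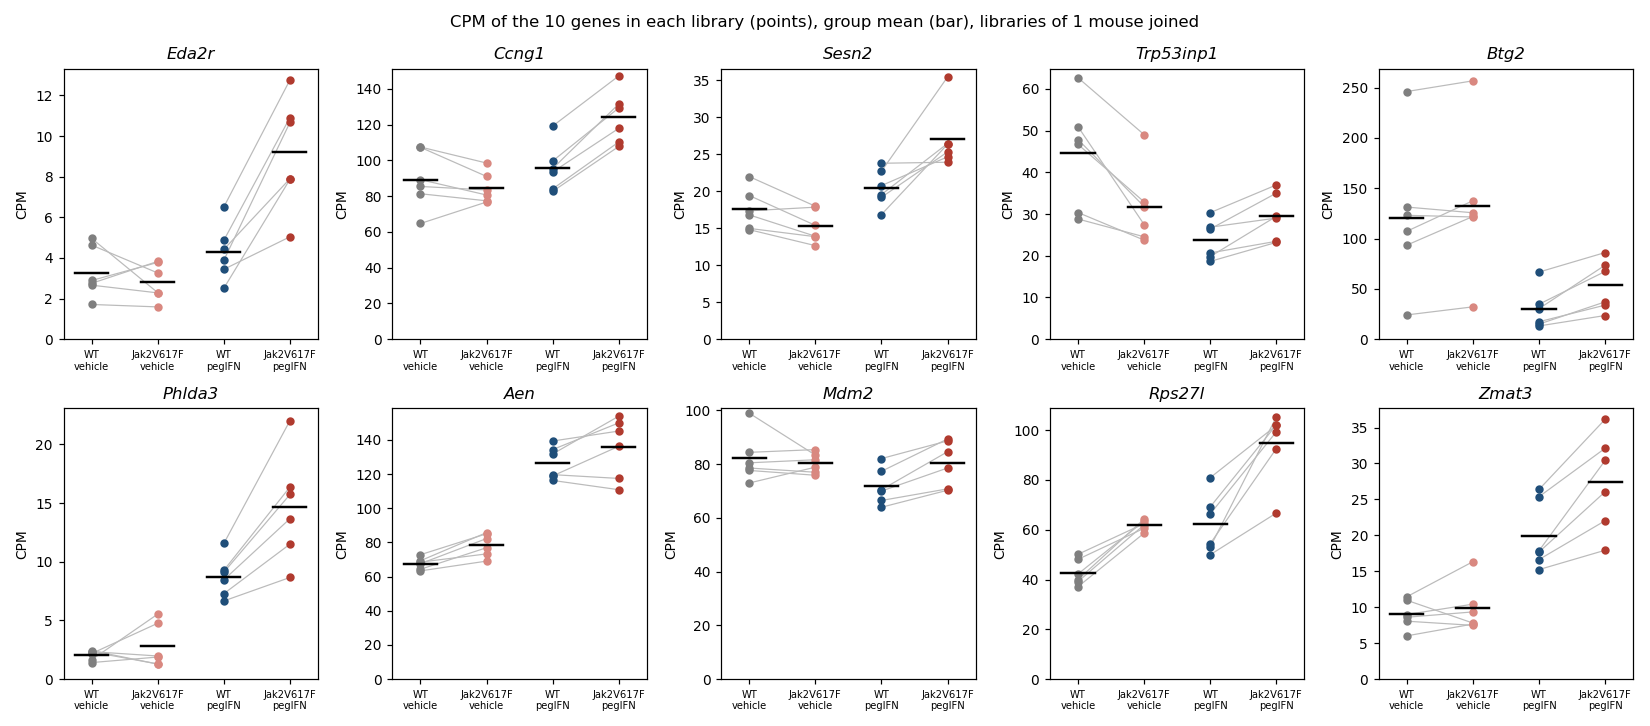
CPM (vertical axes) of each of the 10 genes in the 24 libraries, by group (horizontal axes). Points are libraries, bars are group means, and grey lines join the wild-type and Jak2V617F libraries of 1 mouse. In the pegIFN mice every line climbs from wild-type to Jak2V617F except for Aen.

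Among the genes that act back on p53, Mdm2 is the ubiquitin ligase that degrades p53 and is itself induced by it. Mdm2 ran from 73.0 to 99.0 CPM (median 79.5) in wild-type vehicle and from 64.0 to 82.1 (median 70.3) in wild-type pegIFN libraries. In Jak2V617F cells it ran from 75.9 to 85.4 (median 80.3) under vehicle and from 70.3 to 89.4 (median 81.6) under pegIFN. All 4 groups overlapped. The log2 fold change was -0.20 ± 0.07 (SE) in wild-type and 0.00 ± 0.07 in Jak2V617F cells.

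Ccng1 encodes cyclin G1, which recruits a phosphatase to Mdm2 and is 1 of the most regular p53 targets. Ccng1 ran from 64.7 to 107.5 CPM (median 87.3) in wild-type vehicle and from 82.7 to 119.1 (median 94.4) in wild-type pegIFN libraries. In Jak2V617F cells it ran from 76.7 to 98.5 (median 82.0) under vehicle and from 107.7 to 147.2 (median 123.6) under pegIFN. Wild-type groups overlapped, whereas the lowest Jak2V617F pegIFN library was above the highest Jak2V617F vehicle library. On the log2 scale pegIFN stood above vehicle by 0.10 ± 0.11 (SE) in wild-type and 0.55 ± 0.11 in Jak2V617F cells.

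Rps27l encodes a ribosomal protein paralogue that binds Mdm2. It ran from 37.1 to 50.1 CPM in wild-type vehicle, from 50.0 to 80.9 in wild-type pegIFN, from 58.6 to 64.3 in Jak2V617F vehicle and from 66.7 to 105.3 in Jak2V617F pegIFN libraries. Its groups were thus ordered by genotype as well as by treatment, and it was the gene of the 10 whose vehicle groups did not overlap between genotypes, with Jak2V617F above wild-type as for 1.76% of all genes. Its log2 fold change under pegIFN was 0.54 ± 0.11 (SE) in wild-type and 0.61 ± 0.11 in Jak2V617F cells. Of its 75-base stretches, the read length, 5.45% also occur in the transcripts of 3 other genes, so part of its count depends on how reads were divided. That share was under 1% for Aen, Mdm2 and Zmat3 and 0 for the other 6 genes.

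Of the genes for growth and metabolism, Sesn2 encodes sestrin 2, a stress protein that restrains the growth kinase mTORC1. Sesn2 ran from 14.8 to 22.0 CPM (median 17.1) in wild-type vehicle and from 16.9 to 23.8 (median 20.2) in wild-type pegIFN libraries. In Jak2V617F cells it ran from 12.7 to 18.0 (median 14.7) under vehicle and from 23.9 to 35.5 (median 25.9) under pegIFN. The wild-type groups overlapped and the Jak2V617F groups did not. Under pegIFN the lowest Jak2V617F library (23.94 CPM) also lay just above the highest wild-type library (23.80 CPM), which held for 1.65% of all genes and for no other of the 10. The Sesn2 response was 0.22 ± 0.11 (SE) on the log2 scale in wild-type and 0.82 ± 0.12 in Jak2V617F cells.

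Btg2 encodes an antiproliferative protein that binds the deadenylase complex, and is both a p53 target and an immediate early gene, 1 of those switched on within minutes of a stimulus. Btg2 ran from 24.1 to 246.0 CPM (median 115.1) in wild-type vehicle and from 13.2 to 66.7 (median 23.9) in wild-type pegIFN libraries. In Jak2V617F cells it ran from 32.2 to 256.6 (median 123.8) under vehicle and from 23.5 to 86.1 (median 52.2) under pegIFN. All groups overlapped, and the spread within a group was wide, with an SD of 72.2 around a mean of 120.9 CPM in wild-type vehicle libraries. In vehicle mice the lowest value of both genotypes was that of replicate 6. Its response was -2.03 ± 0.52 (SE) on the log2 scale in wild-type and -1.31 ± 0.51 in Jak2V617F cells.

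The 14 immediate early genes of a list made for this check (Fos, Jun, Egr1 and others) moved with Btg2. Under pegIFN 13 of the 14 fell in wild-type cells and 11 of 14 in Jak2V617F cells (edgeR, adjusted p under 0.05), beside 28.7% and 22.3% of all genes lower, with median log2 fold changes of -1.93 and -1.49 against -0.01 for all genes in each. Egr1, a transcription factor, fell by 2.49 ± 0.41 (SE, adjusted p = 3.5e-05) in wild-type and by 1.94 ± 0.41 (adjusted p = 0.00069) in Jak2V617F cells, on the log2 scale. Ier3, a stress response gene, fell by 1.36 ± 0.12 (adjusted p = 2.9e-09) and 1.30 ± 0.12 (adjusted p = 1.1e-08). Their summed level ran from 3200 to 8030 CPM in wild-type vehicle and 2579 to 8409 in Jak2V617F vehicle libraries, with the lowest sum of both in replicate 6. It ran from 820.0 to 3597 in wild-type pegIFN and 868.1 to 3451 in Jak2V617F pegIFN libraries, with the highest sum of both in replicate 2. These are also the replicates with the lowest vehicle and the highest pegIFN Btg2. The library names also end in a number from 1 to 12, each on 2 libraries of a group, and the labels do not say what it is or which libraries were handled together. In each such pair of wild-type pegIFN libraries Btg2 was low in 1 and high in the other, at 13.2 and 66.7 CPM in replicates 1 and 2, 17.4 and 34.8 in replicates 3 and 5, and 15 and 30.4 in replicates 4 and 6. In their Jak2V617F partners it was at 23.5 and 86.1, 33.9 and 67.3, and 37.1 and 73.5 CPM. The summed immediate early genes differed the same way, at 867.3 and 3597, 1092 and 2573, and 820.0 and 1867 CPM in the wild-type pairs. In the vehicle pairs Btg2 lay closer together, except in the pair with replicate 6. Wild-type vehicle pairs were at 123.1 and 131.3, 107.2 and 93.5, and 246.0 and 24.1 CPM. Those of Jak2V617F vehicle were at 121.4 and 125.6, 137.6 and 121.9, and 256.6 and 32.2 CPM. The part of the immediate early genes, and of any set that these numbers mark, in the Btg2 values was not tested.

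**Figure D3:**
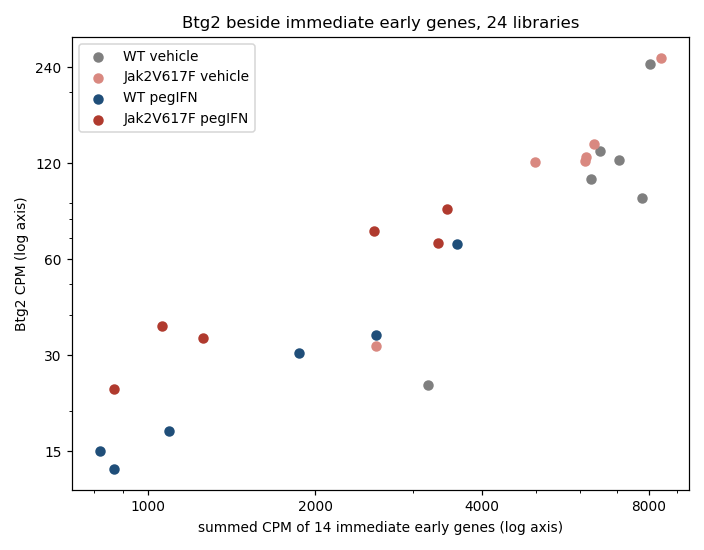
Btg2 (vertical log axis, CPM) against the summed CPM of 14 immediate early genes (horizontal log axis) in the 24 libraries, coloured by group. Libraries with low sums have low Btg2, and 1 library of each genotype in the vehicle mice, replicate 6, lies among the pegIFN libraries at 24.1 and 32.2 CPM.

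Of the genes tied to death and survival signals, Eda2r encodes a receptor of the tumour necrosis factor receptor family that binds ectodysplasin A2. Eda2r ran from 1.71 to 4.96 CPM (median 2.82) in wild-type vehicle and from 2.51 to 6.51 (median 4.16) in wild-type pegIFN libraries. In Jak2V617F cells it ran from 1.59 to 3.83 (median 2.78) under vehicle and from 5.04 to 12.8 (median 9.29) under pegIFN. The Jak2V617F groups did not overlap, and the lowest of the pegIFN values there was that of replicate 1, the library that stood apart. The log2 fold change was 0.39 ± 0.27 (SE) in wild-type and 1.69 ± 0.27 in Jak2V617F cells, equal to 1.31-fold and 3.23-fold.

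Trp53inp1 encodes a stress protein of autophagy and cell death that acts with p53 and p73. Trp53inp1 ran from 28.8 to 62.7 CPM (median 47.3) in wild-type vehicle and from 18.7 to 30.3 (median 23.6) in wild-type pegIFN libraries. In Jak2V617F cells it ran from 23.8 to 49.0 (median 29.6) under vehicle and from 23.2 to 37.0 (median 29.2) under pegIFN. It was the gene of the 10 that was lower in Jak2V617F than in wild-type cells in all 6 vehicle mice and higher in all 6 pegIFN mice. Its response was -0.91 ± 0.19 (SE) on the log2 scale in wild-type and -0.10 ± 0.19 in Jak2V617F cells.

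Phlda3 encodes a small protein with a pleckstrin homology domain that keeps the kinase Akt from the membrane. Phlda3 ran from 1.41 to 2.43 CPM in wild-type vehicle and from 6.66 to 11.6 in wild-type pegIFN libraries, and from 8.66 to 22.0 in Jak2V617F pegIFN libraries. In Jak2V617F vehicle libraries replicates 3 and 4 were at 4.76 and 5.54 CPM and the other 4 at 1.28 to 1.97, whereas the wild-type partners of replicates 3 and 4 were at 2.18 and 1.65. It had the largest fold change of the 10, 4.25-fold (log2 2.09 ± 0.31, SE) in wild-type and 5.26-fold (log2 2.40 ± 0.31) in Jak2V617F cells.

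Aen encodes an exonuclease that takes part in apoptosis. Aen ran from 63.4 to 72.8 CPM in wild-type vehicle and from 116.3 to 139.4 in wild-type pegIFN libraries, and from 69.1 to 85.8 and from 110.9 to 153.9 in Jak2V617F cells. Treatment separated the libraries in both genotypes, and within a treatment the genotypes overlapped. Its log2 fold changes, 0.91 ± 0.08 (SE) and 0.78 ± 0.07, were the ones with wild-type above Jak2V617F.

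Zmat3 encodes a zinc finger protein that binds RNA and guides splicing and mRNA stability. Zmat3 ran from 6.02 to 11.5 CPM in wild-type vehicle and from 15.2 to 26.4 in wild-type pegIFN libraries, and from 7.48 to 16.3 and from 17.9 to 36.2 in Jak2V617F cells. Treatment again separated the libraries in both genotypes. The log2 fold change was 1.14 ± 0.20 (SE) in wild-type and 1.48 ± 0.20 in Jak2V617F cells.

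The difference between the 2 responses (Jak2V617F minus wild-type, log2) was 1.31 ± 0.38 (SE) for Eda2r, 0.81 ± 0.27 for Trp53inp1, 0.73 ± 0.71 for Btg2, 0.60 ± 0.16 for Sesn2 and 0.45 ± 0.15 for Ccng1. It was 0.34 ± 0.28 for Zmat3, 0.31 ± 0.42 for Phlda3, 0.20 ± 0.11 for Mdm2, 0.07 ± 0.15 for Rps27l and -0.12 ± 0.11 for Aen. No gene of the table passed an adjusted p under 0.05 for this difference in edgeR without the mouse in the model, while 1338 had an unadjusted p under 0.05 and DESeq2 called 46. With the mouse as a block, which compares genotypes within a mouse, edgeR called 528 genes (3.33% of those tested), 5 of the 10 among them. These were Eda2r at 1.28 ± 0.26, Trp53inp1 at 0.80 ± 0.10, Btg2 at 0.76 ± 0.15, Sesn2 at 0.60 ± 0.11 and Ccng1 at 0.44 ± 0.07. Since the difference chose the genes, nothing is read from that count. Without both mice of the libraries that stood apart the blocked fit called 104 genes, with Eda2r at 1.52, Trp53inp1 at 0.85 and Ccng1 at 0.43 among them, and Btg2 at 0.72 and Sesn2 at 0.51 not. Cdkn1a, the p53 target that inhibits cyclin-dependent kinases, ran from 8.85 to 18.1 CPM in wild-type pegIFN and from 17.9 to 50.7 in Jak2V617F pegIFN libraries, with a blocked difference of 1.16 ± 0.12.

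Within each mouse the ratio of the Jak2V617F to the wild-type library describes the same values without the differences between mice. In the pegIFN mice the Jak2V617F library was higher in all 6 mice for 9 of the 10 genes, which held for 12.6% of all genes, and Aen was higher in 4 of 6. A gene higher or lower in all 6 mice is so in any smaller set of them by definition. Such counts therefore do not test the mouse that stood apart or any set the library numbers may mark. In the vehicle mice the Jak2V617F library was higher in all 6 for Aen and Rps27l (15.3% of all genes) and lower in all 6 for Trp53inp1 (13.3% of all genes). For Eda2r the ratio in pegIFN mice ran from 1.47 to 3.14, and in vehicle mice from 0.463 to 1.40. For Ccng1 it ran from 1.24 to 1.38 and from 0.848 to 1.19, and its 6 pegIFN ratios were the closest together of the 10 genes, with an SD of 0.05 on the log2 scale. For Trp53inp1 it ran from 1.08 to 1.49 and from 0.540 to 0.852. In these 3 genes no pegIFN ratio overlapped a vehicle ratio, as in 0.819% of all genes in this direction. The ratios share values with the difference in response that chose the genes, so nothing is read from the counts in this paragraph. Btg2 ratios ran from 1.29 to 2.47 in pegIFN and from 0.957 to 1.33 in vehicle mice, a narrow overlap beside the wide spread of its levels.

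**Figure D4:**
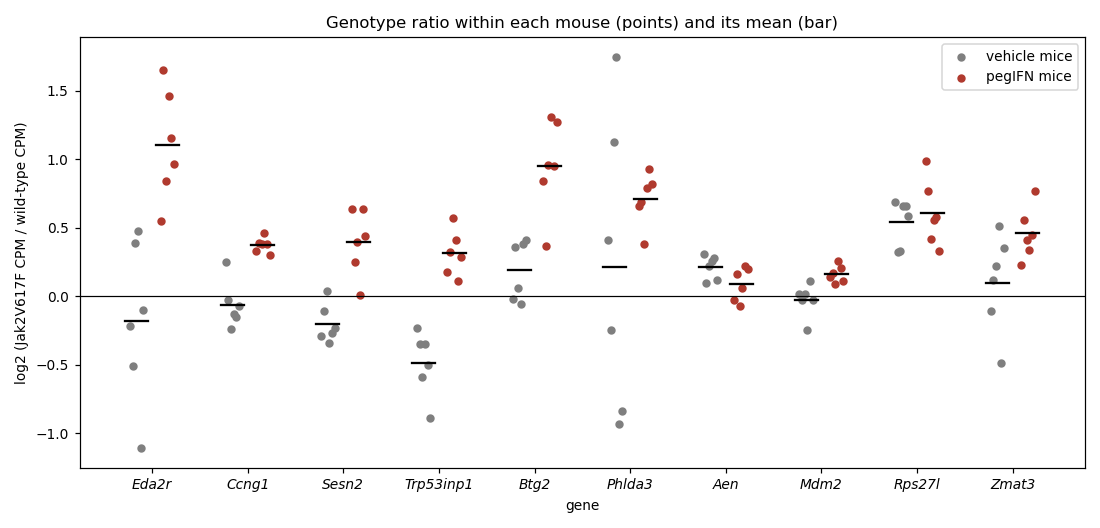
Log2 ratio of Jak2V617F to wild-type CPM within a mouse (vertical axis) for the 10 genes (horizontal axis), in 6 vehicle mice (grey) and 6 pegIFN mice (red). Points are mice and bars are means. The red points lie above 0 for all genes but Aen, and those of Eda2r, Ccng1 and Trp53inp1 do not overlap the grey ones.

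Between genotypes, 1 of the 10 genes was called under vehicle (12.7% of all genes) and 4 under pegIFN (8.58%), and with the mouse as a block 3 (31.1%) and 9 (24.6%). Without both mice of the libraries that stood apart these counts were 1, 2, 3 and 9. These contrasts share values with the difference in response that chose the genes, and nothing is read from the counts. Of the markers of other cell types, the granulocyte and monocyte sum was separate between the genotypes in the pegIFN mice and the others overlapped. The 8 granulocyte and monocyte markers, none at 0 in every library of a group, summed to 152.3 to 599.6 CPM in wild-type pegIFN and 720.7 to 1294 in Jak2V617F pegIFN libraries, with no overlap. Mpo (47.3 to 204.8 against 243.8 to 585.9 CPM) and Elane (9.12 to 52.1 against 72.1 to 159.4) did not overlap, whereas the other 6 did. The list summed to 280.4 to 925.6 and 332.3 to 1887 under vehicle. The sum of the 8 erythroid markers went the other way, with overlap. It ran from 142.2 to 206.5 in wild-type pegIFN and from 67.5 to 193.9 in Jak2V617F pegIFN libraries. Klf1 was at 61.03 to 127.0 and 21.5 to 63.8, and Epor at 49.24 to 71.92 and 33.84 to 59.98. Hba-a1, Hba-a2, Hbb-bs, Hbb-bt, Alas2 and Slc4a1 did not share this shift. Their ranges overlapped widely. Hbb-bs was at 1.53 to 15.62 and 2.2 to 18.06, and Slc4a1 at 0.0 to 3.92 and 0.0 to 3.78. Under pegIFN these genes lay below vehicle in both genotypes without overlap. Klf1 and Epor lay higher, with overlap for Klf1 in Jak2V617F cells. By treatment, the erythroid sum was 226.6 to 914.0 in wild-type vehicle and 220.4 to 516.7 in Jak2V617F vehicle libraries, wholly above the pegIFN libraries. The part of the erythroid markers in the responses was not tested. The 5 megakaryocyte markers summed to 1120 to 1782 in wild-type pegIFN and 1432 to 2048 in Jak2V617F pegIFN libraries, and to 558.7 to 1507 and 828.5 to 1804 under vehicle. The 5 T and NK cell markers summed to 70.6 to 104.7 and 94.3 to 147.6 under pegIFN, nearly all of it Nkg7, with Cd3e at 0.34 CPM or less in every library. Their part in the genotype differences was not tested.

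The genotype difference averaged over both treatments comes from the same libraries. With 6 libraries in every group its estimate is orthogonal to both responses and to their difference, and it was tested for the 10 genes. The test shares its estimate of spread with those contrasts, so it is not fully free of the choice of genes. Rps27l was higher in Jak2V617F cells by 0.57 ± 0.08 (SE) on the log2 scale, 1.48-fold (edgeR, adjusted p = 4.3e-05), in 12 of 12 mice. Aen was higher by 0.16 ± 0.05 (adjusted p = 0.028), in 10 of 12 mice, and Phlda3 by 0.60 ± 0.21 (adjusted p = 0.040), in 9 of 12 mice. These 3 of 10 compare with 25.9% of all genes called. With the mouse as a block 6 of the 10 were called against 40.6% of all genes: Rps27l (adjusted p = 1.4e-06), Btg2 (0.56, adjusted p = 6.3e-05), Aen (adjusted p = 9.0e-04), Ccng1 (0.16, adjusted p = 0.0015), Zmat3 (0.28, adjusted p = 0.0044) and Eda2r (0.46, adjusted p = 0.0082). Phlda3 was not called in the blocked fit (0.49, adjusted p = 0.053). Under vehicle and under pegIFN the blocked differences were -0.06 and 0.38 for Ccng1 and -0.18 and 1.10 for Eda2r. They were 0.10 and 0.46 for Zmat3 and 0.18 and 0.94 for Btg2. The averages of these genes thus came mainly from the pegIFN mice. For Rps27l the differences were 0.54 and 0.61, and for Aen 0.22 and 0.09. For Mdm2, Sesn2 and Trp53inp1 neither fit made a call, and without the block the 95% intervals of the log2 difference were -0.04 to 0.17, -0.06 to 0.26 and -0.36 to 0.18.

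The call of Rps27l held without each of the 24 libraries in turn. That of Aen was lost without any of 10 libraries, with adjusted p values up to 0.066: wild-type pegIFN replicates 1, 3 and 6, wild-type vehicle replicates 4 and 6, Jak2V617F pegIFN replicates 2, 4 and 5, and Jak2V617F vehicle replicates 1 and 3. That of Phlda3 was lost without any of 14, with adjusted p values up to 0.097, where Jak2V617F vehicle replicates 3 and 4 weighed most and left 0.49 and 0.43. The others were wild-type pegIFN replicates 1, 2, 3, 4 and 6, wild-type vehicle replicates 1, 4 and 6, and Jak2V617F pegIFN replicates 2, 4, 5 and 6. Without both mice of the libraries that stood apart, Aen (0.16, adjusted p = 0.057) and Phlda3 (0.41, adjusted p = 0.19) were not called. Eda2r, not called with all libraries, was called without any 1 of 5: wild-type pegIFN replicate 6, wild-type vehicle replicates 2 and 5, Jak2V617F pegIFN replicate 1 and Jak2V617F vehicle replicate 6.

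The position of 3 of the genes bears on this contrast. Phlda3 (chr1:135766119-135769136) and Btg2 (chr1:134075170-134079120, both GRCm38 as given in the table) lie 2.29 and 3.98 megabases from Ptprc (chr1:138062861-138175305), the CD45 gene by which the donors differ. For these genes the Jak2 genotype and the donor's alleles near Ptprc cannot be told apart. Eda2r (chrX:97333840-97377216) is X-linked, and donor sex moved with genotype.

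The mice themselves differed, and for most of the 10 genes both genotypes of a mouse differed together. Over genes, 11 of 12 pairs of libraries were also highest with their own partner. The share of all genes with such a correlation was not computed, so nothing is read about the 10 as a set. After the group means were removed, the log2 CPM of wild-type and Jak2V617F partners correlated over the 12 mice at r = 0.96 for Btg2 (rho 0.89, adjusted permutation p = 0.0005), 0.88 for Ccng1 (rho 0.93, adjusted p = 0.0005) and 0.84 for Trp53inp1 (rho 0.78, adjusted p = 0.0041). For Aen r was 0.80 (rho 0.80, adjusted permutation p = 0.013), for Mdm2 0.74 (rho 0.82, adjusted p = 0.0085) and for Zmat3 0.72 (rho 0.83, adjusted p = 0.025). It was 0.53 for Sesn2 (rho 0.43, adjusted permutation p = 0.14), 0.50 for Eda2r (rho 0.49, adjusted p = 0.15), 0.49 for Rps27l (rho 0.34, adjusted p = 0.22) and 0.06 for Phlda3 (rho 0.00, adjusted p = 0.89). These 10 relations were adjusted together by Benjamini-Hochberg, with 100000 two-sided permutations each. Without the 2 mice farthest from the median, r was 0.94 for Btg2, 0.91 for Ccng1, 0.84 for Mdm2, 0.80 for Trp53inp1, 0.77 for Aen and 0.67 for Zmat3, all still under an adjusted p of 0.05. Partners share the mouse and possibly the preparation, so r does not separate mouse from preparation.

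The genes most like each of the 10 over the 24 libraries are given by Pearson's r of log2 CPM, as a description that the treatment dominates. Phlda3 and Zmat3 were nearest to each other (r = 0.941), and Phlda3 was next nearest to Bax (0.929), the pore-forming death effector that p53 induces. For Eda2r they were Zfp365 (0.854), a listed p53 target, and Zmat3 (0.837), for Ccng1 6530418L21Rik (0.879) and Cdkn1a (0.860), and for Sesn2 Hmcn2 (0.828) and Zmat3 (0.813). Aen was nearest to Nop2 (0.989) and Nol9 (0.985), factors of ribosome assembly, and Rps27l to Psma3 (0.978), a proteasome subunit, and Btf3 (0.972). Btg2 was nearest to Rgs2 (0.919) and Egr2 (0.917), a listed immediate early gene. Trp53inp1 was nearest to Zfp874a (0.872) and GM8989 (0.867), and Mdm2 to Rsrc2 (0.882) and Luc7l (0.814), splicing factors. Among the 10, r was 0.74 to 0.94 for Phlda3 with Eda2r, Ccng1, Sesn2, Aen, Rps27l and Zmat3, and -0.44, -0.32 and -0.11 with Btg2, Trp53inp1 and Mdm2.

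Of 36 other p53 targets in 4 lists, all tested, 8 rose and 9 fell under pegIFN in wild-type cells and 8 rose and 5 fell in Jak2V617F cells (edgeR, adjusted p under 0.05), against 28.2% and 28.7%, and 21.7% and 22.3%, of all genes. Their median log2 fold changes were -0.02 and 0.10, against -0.01 for all genes in each genotype. In the list for cell death, Bax rose by 0.78 ± 0.07 (SE, adjusted p = 4.9e-09) in wild-type and 0.83 ± 0.07 (adjusted p = 2.8e-09) in Jak2V617F cells. Bbc3, which encodes the death inducer Puma, rose in Jak2V617F cells by 0.67 ± 0.17 (adjusted p = 0.0025). Perp, a p53 target of cell junctions, fell in wild-type cells by 1.21 ± 0.27 (adjusted p = 4.6e-04). For growth arrest and metabolism, Plk2, a kinase, fell by 2.72 ± 0.50 (adjusted p = 8.8e-05) in wild-type and 1.59 ± 0.48 (adjusted p = 0.010) in Jak2V617F cells. Sesn1, a relative of Sesn2, fell by 0.79 ± 0.07 (adjusted p = 6.8e-09) and 0.55 ± 0.07 (adjusted p = 4.0e-06). Zfp365, which guards stalled replication forks, rose by 1.06 ± 0.25 (adjusted p = 8.9e-04) and 2.09 ± 0.25 (adjusted p = 9.1e-07). For DNA repair, Ddb2, which finds ultraviolet damage, fell by 0.64 ± 0.08 (adjusted p = 3.3e-07) and 0.53 ± 0.08 (adjusted p = 1.3e-05). In the list for feedback on p53, 2 of 5 genes rose in Jak2V617F cells, Pvt1 by 1.00 ± 0.23 (adjusted p = 0.0012) and Trp53cor1, the lincRNA-p21 gene, by 0.91 ± 0.30 (adjusted p = 0.018).

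**Figure D5:**
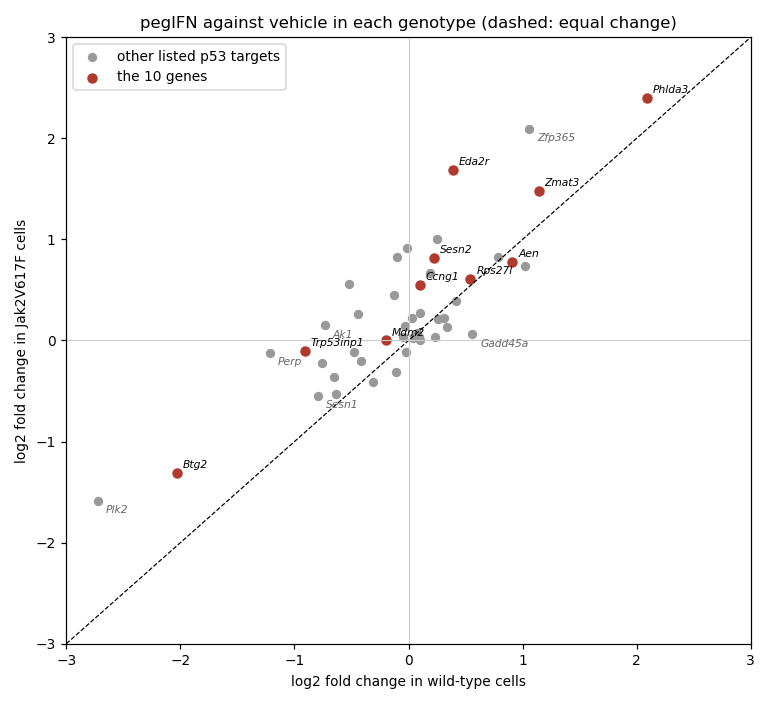
Log2 fold change of pegIFN against vehicle in wild-type (horizontal axis) and Jak2V617F cells (vertical axis), for the 10 genes (red, named) and 36 other listed p53 targets (grey, 6 of them named). The dashed line marks an equal change. Of the 10 genes, 9 lie above the line, and Plk2, Perp, Ak1, Sesn1 and Zfp365 lie above it while Gadd45a lies below.

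The difference between the 2 responses passed the test in none of the 36 other targets in edgeR without the block, where no gene of the table was called, and in 7 of the 36 once the mouse was a block, all higher in Jak2V617F cells, against 1.28% of all genes called in that direction. These were Ak1 (0.88 ± 0.13, SE, adjusted p = 0.0035), Plk2 (1.25 ± 0.23, adjusted p = 0.013), Ddit4 (0.51 ± 0.13, adjusted p = 0.036), Pvt1 (0.72 ± 0.19, adjusted p = 0.043), Trp53cor1 (0.89 ± 0.23, adjusted p = 0.043), Zfp365 (1.06 ± 0.28, adjusted p = 0.045) and Sesn1 (0.24 ± 0.06, adjusted p = 0.047). Their names were listed with results of these libraries known. Without both mice of the libraries that stood apart, the blocked fit called 1 of the 36, beside 104 of all genes. In the pegIFN mice the Jak2V617F library was higher in all 6 mice for 16 of the 36 other targets and lower in all 6 for 4, beside 12.6% and 10.1% of all genes. In the vehicle mice it was higher in all 6 for 6 of the 36 and lower in all 6 for 8, beside 15.3% and 13.3% of all genes.

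Between genotypes under pegIFN, 8 of the 36 other targets were higher and 3 lower in Jak2V617F cells (edgeR, adjusted p under 0.05), against 4.16% and 4.43% of all genes. Bax was higher by 0.40 ± 0.07 (SE, adjusted p = 0.0013) and Ak1, an adenylate kinase, by 0.64 ± 0.13 (adjusted p = 0.0034), whereas Gadd45a, a stress sensor of growth arrest, was lower by -0.78 ± 0.16 (adjusted p = 0.0040). The 11 calls became 6 or 7 without any 1 of 8 libraries. These were wild-type pegIFN replicates 1, 2, 3, 4 and 5 and Jak2V617F pegIFN replicates 1, 4 and 5. The calls became 7 with no filter on low counts and 5 without both mice of the libraries that stood apart. Over all 24 single omissions they ranged from 6 to 13, beside 593 to 2051 of all genes against 1363 with every library. Calls among all genes also fell without both mice, as given below. With the mouse as a block 14 were higher and 4 lower, against 13.3% and 11.3% of all genes. Averaged over treatments, 9 were higher and 4 lower, beside 25.9% of all genes called. Without those mice 8 were called, and the share of all genes in that fit is not given here. In that average Bax stood at 0.38 ± 0.05 (adjusted p = 3.6e-05) and Ptprv, which also lies near Ptprc, at -1.68 ± 0.15 (adjusted p = 1.2e-07).

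Of 17 genes for p53 and its regulators 14 were tested. Trp53 itself rose under pegIFN by 0.55 ± 0.06 (SE, edgeR, adjusted p = 3.8e-08) in wild-type and 0.32 ± 0.06 (adjusted p = 1.2e-04) in Jak2V617F cells. The order was the opposite in 9 of the 10 genes, but these were chosen on this difference, so nothing is read from that. Of the 36 other targets, 23 had the Jak2V617F response above the wild-type response, with a median difference of 0.17. Under pegIFN Trp53 was lower in Jak2V617F than in wild-type cells by -0.22 ± 0.06 (edgeR, adjusted p = 0.021). This call was lost without wild-type pegIFN replicate 4 (adjusted p = 0.059) or Jak2V617F pegIFN replicate 1 (adjusted p = 0.055). It was also lost without both mice that stood apart (adjusted p = 0.060). In all, 3 of the 14 rose and 2 fell in wild-type cells and 2 rose and 2 fell in Jak2V617F cells, no more than the 28.2% and 28.7%, and 21.7% and 22.3%, of all genes, with median log2 fold changes of -0.01 and 0.00. Rpl11, a ribosomal protein that restrains Mdm2, rose by 0.22 ± 0.06 in both (adjusted p = 0.0034 and 0.0048). Crebbp, an acetyltransferase that acts on p53, fell by 0.39 ± 0.11 (adjusted p = 0.0031) and 0.40 ± 0.11 (adjusted p = 0.0042). Between genotypes under pegIFN, none of the 14 was higher and 3 were lower in Jak2V617F cells, beside 4.16% and 4.43% of all genes. With the mouse as a block 3 were higher and 4 lower, beside 13.3% and 11.3%. The blocked difference in response was called in 1 of the 14, lower in Jak2V617F cells, beside 2.05% of all genes in that direction.

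Relatives of the 10 genes took mixed courses. Of 20 listed relatives 18 were tested, and 5 rose and 9 fell in wild-type and 4 rose and 8 fell in Jak2V617F cells, beside 28.2% and 28.7%, and 21.7% and 22.3%, of all genes, with median log2 fold changes of -0.36 and -0.18. Sesn3 fell by 1.30 ± 0.12 (SE, edgeR, adjusted p = 5.6e-09) in wild-type and 1.10 ± 0.12 (adjusted p = 2.3e-07) in Jak2V617F cells, beside the higher values of Sesn2. Ccng2 (cyclin G2) fell in Jak2V617F cells by 0.94 ± 0.15 (adjusted p = 2.8e-05), where Ccng1 stood at 0.55. Isg20, an interferon-induced exonuclease related to Aen, rose by 2.54 ± 0.08 (adjusted p = 1.9e-18) and 2.53 ± 0.08 (adjusted p = 2.6e-18).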

How the data were processed

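Polyadenylated RNA of LT-HSCs was measured in 24 libraries of 12 mice. Per the submitters' processing notes, the authors used cutadapt 1.11, STAR 2.5.2a and RSEM 1.2.30 with GRCm38 to make the deposited expected counts per gene. The annotation release and strand setting are not given in the sources used here. RSEM shares ambiguous reads among genes, so 16.8% of the values were not whole and were rounded before testing.

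Low genes were removed with filterByExpr (minimum count 10), and the 15879 genes tested hold 99.95% of the counts. Tests were edgeR 4.0.16 (R 4.3.3) quasi-likelihood F tests with TMM factors, robust dispersion, 4 group means and no block, adjusted by Benjamini-Hochberg over all genes, with a call at an adjusted p under 0.05. The common biological coefficient of variation was 18.6%. CPM used TMM-scaled library sizes, and log2 CPM a prior count of 2. The script was tested on simulated data. Alternatives were DESeq2 1.42.0, other factors and filters, each library left out, fits without the libraries or mice that stood apart, and blocks.

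A library's name carries a mouse number, and same-numbered libraries of a treatment were taken as 1 mouse, since the labels put both genotypes in each recipient. Such partners correlated at 0.12 to 0.42 over genes after group means were removed, and 11 of 12 pairs were highest with their own partner. The names also end in a number from 1 to 12 that 2 libraries share. The labels do not say which libraries with different numbers belong together, so no fit with such a set as a term was made.

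The 10 genes and all lists were chosen with earlier results of these data known. Of 93 listed genes, all matched the table (4 by ID through the supplied names) and 88 were tested. Named were the 10 genes, up to 4 genes of each list with the smallest p among those called in a comparison, and for each of the 10 the 2 genes with the highest r. Outside that rule, the 7 targets called in the blocked interaction and the replicates named were picked after their values were seen.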

Additional observations from a re-analysis of the deposited data

Results flagged for a closer look

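In 4 of the 40 sets of 6 libraries (10 genes in 4 groups) the highest or lowest library lay far from the others by Dixon's test, where chance gives about 1 in 20. Sesn2 in Jak2V617F pegIFN replicate 5 was at 35.47 CPM against 23.94 to 26.47 in the other 5. Rps27l in Jak2V617F pegIFN replicate 3 was at 66.7 CPM, the lowest of its group. Jak2V617F vehicle replicate 4 was the high library for both Trp53inp1 (49.02 CPM) and Zmat3 (16.34 CPM), and it also had the highest Phlda3 (5.54 CPM) and Cdkn1a (18.15 CPM) of its group. Its wild-type partner in the same mouse is the library that stood apart on sex-linked genes. That partner had the highest Trp53inp1 (62.66 CPM), Zmat3 (11.46 CPM) and Cdkn1a (17.37 CPM) of the wild-type vehicle libraries. Its Phlda3 (1.65 CPM) was not the highest. Marker sums of Jak2V617F vehicle replicate 4 were the highest of its group for endothelial and stromal (164.8 CPM), granulocyte and monocyte (1887) and erythroid markers (516.7). The same held for its B lymphoid (22.5) and LT-HSC markers (1658), but not for megakaryocyte or T and NK markers. The partner was highest in erythroid (914.0), B lymphoid (22.8) and LT-HSC sums (2277), and not in the others. The part of these sums was not tested.

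The response differed between genotypes in 5 of the 10 genes when the mouse was a block, by 1.28 for Eda2r, 0.80 for Trp53inp1, 0.76 for Btg2, 0.60 for Sesn2 and 0.44 for Ccng1 on the log2 scale, all higher in Jak2V617F cells, beside 3.33% of all genes called. Without both mice of the libraries that stood apart 3 of the 10 were called, and Btg2 and Sesn2 were not. The genes were chosen on this difference, so these values describe it and do not test it.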

How the results depend on the processing

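No direction called was reversed under an alternative. Pairing by mouse moved the counts most. With the mouse as a block, the genes called rose from 0 to 528 for the difference in response, from 2018 to 4944 for genotype under vehicle, from 1363 to 3910 under pegIFN and from 4117 to 6449 averaged, and the called genes among the 10 from 0 to 5, 1 to 3, 4 to 9 and 3 to 6. With the mouse block and both mice of the libraries that stood apart left out, an alternative added after the data were seen, these counts were 104, 3959, 2530 and 5477, and 3, 3, 9 and 7. Without the block but without those mice, genotype under pegIFN had 485 genes and 2 of the 10, and the average 1 of the 10. Without only the pair of libraries, genotype had 999 genes under vehicle and 653 under pegIFN. Fitted on the groups compared alone, genotype under vehicle had 1152 genes and 2 of the 10. DESeq2 called 46 genes for the difference in response and 3 of the 10 for genotype under vehicle.

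With each library left out in turn, the genes called ranged from 8419 to 9218 (6 to 8 of the 10) for pegIFN in wild-type and 6226 to 7503 (7 to 8) in Jak2V617F cells. They ranged from 0 to 36 (0 to 0) for the difference in response, 929 to 2650 (1 to 2) for genotype under vehicle, 593 to 2051 (2 to 4) under pegIFN and 3507 to 4846 (1 to 4) averaged. The count under vehicle was lowest without wild-type vehicle replicate 4 and that under pegIFN without Jak2V617F pegIFN replicate 1, the libraries that stood apart. The 36 for the difference came without wild-type pegIFN replicate 6. The correlation of Phlda3 between partners went from 0.06 to -0.27 without the 2 mice farthest from the median. The cause of these shifts was not tested. Depth limits Eda2r and Phlda3 most, with as few as 48 and 39 counts in a library.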
